A study of Mus musculus with 6 samples.

Results

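The Myc network genes examined here were the 8 genes Myc, Mycn, Mycl, Max, Mga, Mxi1, Mnt and Mlx, taken by name from the RefSeq annotation of mm10 because WDR5 is a known cofactor of MYC. They are 8 of 21896 protein-coding genes. All regions listed from 20 kb before to 20 kb after each gene were collected. This gave 114 of the 183983 regions in 4 chromatin immunoprecipitation sequencing (ChIP-seq) peak lists. The cells were mouse embryonic stem cells with the Rx:GFP knock-in, kept in 2i+LIF. Every group lacked endogenous Wdr5 and p53. The cells carried either WDR5WT (WT rescue) or WDR5S91KY191F, with the substitutions S91K and Y191F (mutant rescue), and are called the WT line and the mutant line. After 10 minutes in 1% formaldehyde, 1 WDR5 library and 1 H3K4me3 library came from each, so the lines were described side by side without replicates or a test. How the rescue proteins were expressed, and whether each line is a single clone, is not given in the sources used here.

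MYC, MYCN and MYCL are basic helix-loop-helix leucine zipper transcription factors that bind DNA as dimers with MAX, most tightly at the E-box CACGTG. MXI1, MNT and MGA also pair with MAX and are known mainly as repressors. MLX is a MAX-like protein that pairs with glucose-sensing partners and with MNT. WDR5 is a scaffold of the enzymes that methylate lysine 4 of histone H3, and it also binds MYC proteins directly. MGA and WDR5 are both subunits of the Polycomb complex PRC1.6, which silences germline genes in embryonic stem cells.

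The start-site sequences below are those on which the results turn. Each runs from 250 bases before to 20 bases after a RefSeq start site (GRCm38.p6, the mm10 coordinates), 5′ to 3′ on the gene's own strand, and capitals mark CACGTG. The Mnt promoter (chr11:74830674-74830943, plus strand) is shown because WDR5 was listed there in both lines. Those of Max (chr12:76962229-76962498, minus strand) and Mlx (chr11:101087040-101087309, plus strand) are shown because they hold the same letters without a WDR5 region. The promoter at the third listed start of Mxi1 (chr19:53329445-53329714, plus strand) lay wholly inside a WDR5 region of the WT line. That of Mycn (chr12:12941817-12942086, minus strand) lay at one of the widest H3K4me3 regions at any gene.
Mnt: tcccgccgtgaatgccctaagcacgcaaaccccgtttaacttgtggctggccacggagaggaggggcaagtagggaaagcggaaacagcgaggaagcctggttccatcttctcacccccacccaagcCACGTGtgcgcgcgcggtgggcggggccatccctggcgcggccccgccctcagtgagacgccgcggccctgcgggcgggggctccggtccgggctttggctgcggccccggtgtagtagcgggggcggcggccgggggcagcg
Max: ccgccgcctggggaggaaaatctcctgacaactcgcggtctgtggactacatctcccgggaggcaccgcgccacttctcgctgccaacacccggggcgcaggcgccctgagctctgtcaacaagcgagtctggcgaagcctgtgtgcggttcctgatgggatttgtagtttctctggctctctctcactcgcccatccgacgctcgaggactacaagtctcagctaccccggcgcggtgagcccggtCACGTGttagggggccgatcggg
Mlx: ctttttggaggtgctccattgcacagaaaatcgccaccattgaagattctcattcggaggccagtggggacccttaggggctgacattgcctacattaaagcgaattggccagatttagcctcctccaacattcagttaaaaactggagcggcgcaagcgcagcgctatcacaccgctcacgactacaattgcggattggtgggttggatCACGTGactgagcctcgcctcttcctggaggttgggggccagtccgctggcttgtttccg
Mxi1: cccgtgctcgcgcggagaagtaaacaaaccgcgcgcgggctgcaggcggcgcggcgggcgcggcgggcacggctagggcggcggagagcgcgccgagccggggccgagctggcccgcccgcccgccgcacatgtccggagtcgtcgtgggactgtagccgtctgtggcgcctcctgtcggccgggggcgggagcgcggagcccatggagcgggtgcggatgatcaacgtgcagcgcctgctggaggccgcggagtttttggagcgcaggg
Mycn: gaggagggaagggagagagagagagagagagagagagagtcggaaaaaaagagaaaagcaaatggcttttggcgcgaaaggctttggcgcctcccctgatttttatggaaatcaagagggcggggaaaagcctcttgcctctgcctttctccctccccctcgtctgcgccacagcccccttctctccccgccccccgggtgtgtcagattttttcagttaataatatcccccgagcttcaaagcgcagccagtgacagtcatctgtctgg

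RefSeq start-site sequences of 300 bases, from 250 before to 50 after the start, matched 7 of the 8 genes with 9 start sites, 3 of them for Mxi1. The sequence for Myc is not shown. The letters CACGTG, which read the same on both strands, occurred in 3 of the 9 sequences, those of Mnt, Max and Mlx, and in 7.15% of the 32851 sequences of all genes. The E2F letters TTCCCGC or GCGGGAA, which are each other's reverse complement and do not overlap CACGTG, occurred in 0 of the 9 and in 4.6% of all. The 9 sequences each held more of the dinucleotide CpG than the median of 7 over all genes. Counts ran from 14 at Mycn, above 63.7% of all sequences, to 49 at the third start of Mxi1, above 99.0%. Mnt held 32 CpG, Max 30 and Mlx 18.

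Peak lists hold no read totals, so the depth of each library is unknown. A region is called strong here where its −log10 q reached 2. WDR5 gave 11095 regions (10.8% strong) in the WT line against 26888 (4.83% strong) in the mutant line. H3K4me3 gave 71695 (94.0% strong) against 74305 (90.7% strong). The fold of a region is the authors' enrichment at its summit and is used only within its own list. Wdr5 and Trp53, the 2 genes knocked out, each had an H3K4me3 region within 1 kb of the start site in both lines, which does not check the knockouts. A WDR5 region stood at each in the WT line list and at 0 of the 2 in the mutant line list. That at Wdr5 was weak, with a fold of 2.35 and a −log10 q of 0. Of 8 embryonic stem cell markers, 8 had H3K4me3 at a start site in both lines, as did 7 and 5 of 8 fibroblast (feeder) markers in the WT and the mutant line, where 68.7% and 68.0% of all protein-coding genes did. The counts for WDR5 were 4 and 0 of the 8 stem cell markers and 0 and 1 of the 8 fibroblast markers, where 16.5% and 9.65% of all genes had a region. Of these marker regions only that at Sox2 in the WT line was strong (fold 3.63, −log10 q 3.08), where 2.43% of all genes had a strong one. A region at a marker is not its expression, and the part of other cells in the results was not tested.

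The WDR5 region of highest fold around the Myc network genes stood at the Mnt promoter in both lists, and most of the others were weak. The windows, 544 kb in all, held 7 WDR5 regions for the WT line, 3 of them strong, against 12 for the mutant line, 1 of them strong. The 7 and 12 regions of the full lists are 12.9 and 22.1 per Mb, beside 7.63 and 11.7 per Mb over the same windows of all protein-coding genes. The mutant list is the longer, and cut to the length of the WT list by p it held 3 regions in the windows, at Mnt, Mga and Mycl, fewer than the 7 of the WT line. In each line 6 of the 8 genes had at least 1 WDR5 region in the window, where 43.0% and 53.2% of all protein-coding genes did. Strong regions stood in the windows of Mnt, Mga and Mxi1 in the WT line (6.86% of all genes) and of Mnt in the mutant line (6.23% of all genes).

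At start sites (a region within 1 kb of a listed start), 2 of 8 genes had a WDR5 region in the WT line, Mnt and Mxi1, where 16.5% of all protein-coding genes did. In the mutant line 4 of 8 did, Mnt, Mxi1, Mga and, at a gene end only, Myc, where 9.65% of all genes did. The order of these counts depended on the rule. The mutant line count was 1, Mnt, at equal list length and where the region had to cover the start. The WT line count was 4 within 2.5 kb, with Myc and Mlx added. Counted at either gene end it was 3 in the WT line, with Mga added, whose region there was strong, and 4 in the mutant line. Mnt and Mxi1 were in both lists, as were 4.33% of all genes. Strong start-site regions were found at 2 genes (2.43% of all genes) and at 1 gene (1.75%), respectively. For Myc no start site or strand was listed in the table used, so either gene end counted. Its region in the mutant line lay at the higher-coordinate end, off H3K4me3, while H3K4me3 of both lines covered the lower-coordinate end. The mutant line count of 4, and the median over these 4 genes below, thus include a region that may not be at a start. Over the 2 genes with a start-site region the median fold was 6.36 in the WT line, and over the 4 genes it was 2.21 in the mutant line. Over all genes with such a region it was 2.74 and 2.57 in the respective list.

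**Figure D1:**
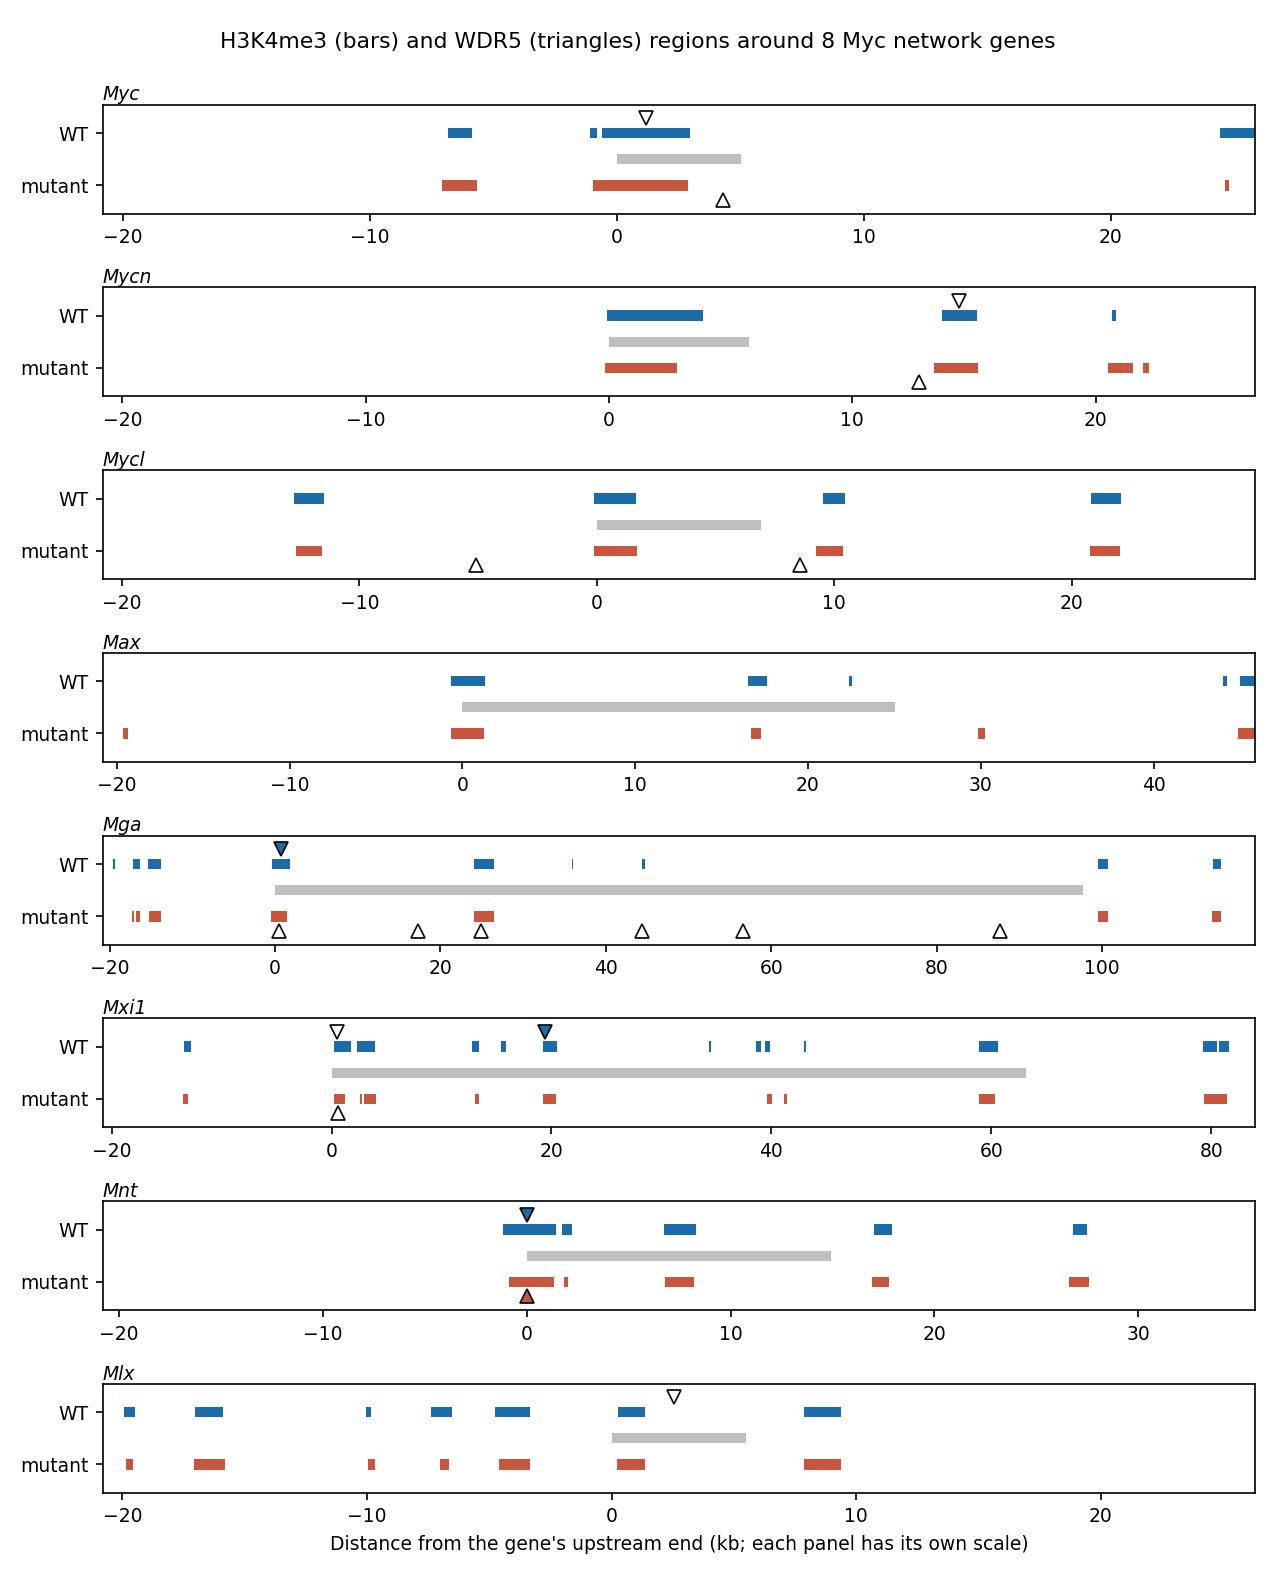
Regions within 20 kb of each of the 8 genes, plotted by distance in kb from the gene's upstream end (for Myc, its lower-coordinate end). Grey bars are genes, blue and red bars H3K4me3 regions of the WT and the mutant line, and triangles WDR5 summits, filled where the region is strong. Mnt is the gene with a filled triangle in both lines.

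Mnt, which encodes a MAX partner that represses E-box genes, had 1 WDR5 region in each list (gene at 74830806 to 74845725 on chromosome 11). In the WT line it ran from 74830667 to 74830974, with a fold of 9.12 and a −log10 q of 30.9. It ranked 218 of 11095 by p, within the top 1.96% of its list. In the mutant line it ran from 74830667 to 74830935, with a fold of 3.77 and a −log10 q of 5.52, and ranked 628 of 26888, within the top 2.34%. Both regions began at the same base and covered the listed start site at 74830924. The CACGTG of the Mnt sequence above, at 74830801 to 74830806, lay 123 bases before that start. The WT line summit, 74830810, was 4 bp from these letters and the mutant line summit, 74830805, was within them. The last of these letters, 74830806, is also the upstream end of the annotated gene. The summits lay 4 and −1 bp from that end, so nearness to the letters and to the gene end cannot be told apart.

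The same letters stood in the promoters of Max and Mlx without a WDR5 region over them in either line. In Max, at 76962246 to 76962251 on chromosome 12, they covered the start site itself. In Mlx, at 101087250 to 101087255 on chromosome 11, they began 40 bases before it. Over all genes, CACGTG occurred in 13.5% (interval 11.9 to 15.1%) of the 1865 promoters that a WDR5 region of the WT line overlapped and in 14.5% (12.5 to 16.7%) of 1138 in the mutant line. Among promoters overlapped by H3K4me3 the shares were 9.93% and 10.1%. The E2F letters followed the same order, with 12% and 13.0% of the promoters overlapped by WDR5 and 8.17% and 8.22% of those overlapped by H3K4me3. These are exact (Clopper-Pearson) 95% intervals for counting error only, and base composition was not matched between these sets. Start sites of the same gene were counted separately, though their sequences can share bases and a region, as at Mxi1. The intervals may thus be too narrow.

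**Figure D2:**
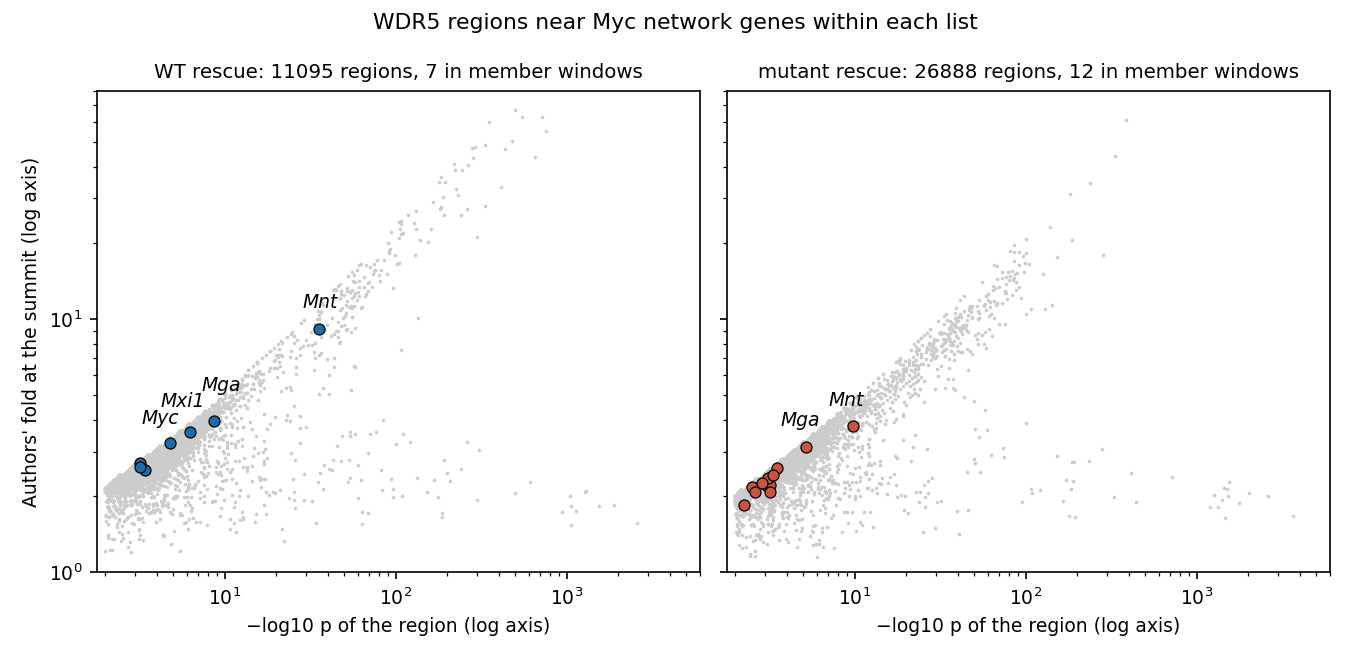
Fold against −log10 p (both log axes) for every WDR5 region of the WT line (left) and the mutant line (right) in grey, with the 7 and 12 regions near Myc network genes in colour. Mnt has the highest fold among the coloured points in each list (9.12 and 3.77), and the unlabelled points have a fold below 3.

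Mxi1, which encodes a MAX partner that brings SIN3 repressor complexes to DNA, has 3 listed starts on chromosome 19, at 53310506, 53329413 and 53329695. The WT line list held 2 WDR5 regions there. That at the 2 later starts ran from 53329440 to 53329936 with a fold of 3.60 and a −log10 q of 2.08, just above the threshold of 2. The mutant line list had no region at these starts. Just after the earliest start both lists held a narrow region, of 151 bp and fold 2.54 in the WT line and of 154 bp and fold 2.25 in the mutant line, with a −log10 q of 0.0207 and 0. These overlapped, from 53310620 to 53310770 and from 53310678 to 53310831.

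Mga, the largest protein of the network and a DNA-binding subunit of PRC1.6, had 1 WDR5 region in the WT line and 6 in the mutant line. The WT line region, from 119872820 to 119873336 on chromosome 2, had a fold of 3.98 and a −log10 q of 4.30. Its summit was 692 bp inside the lower-coordinate end of the gene (119872503), while the listed start site is at 119897228. The mutant line list held an overlapping region there, from 119872663 to 119873056, with a fold of 2.08 and a −log10 q of 0.0171. A further mutant line region began 46 bp after the listed start, with a fold of 1.85 and a −log10 q of 0. The other 4 lay along the gene body off H3K4me3 of that line. The one of highest fold among them, 3.14 with a −log10 q of 1.25, ran from 119928996 to 119929171. Another, from 119916657 to 119917048 (fold 2.43, −log10 q 0.0826), had its summit within an H3K4me3 region of the WT line alone (119916886 to 119917220). The remaining regions ran from 119889781 to 119890172 (fold 2.37, −log10 q 0.0171) and from 119960100 to 119960351 (fold 2.08, −log10 q 0).

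The genes of the MYC family had WDR5 regions only of −log10 q below 1 in either list. In the WT line a region of 155 bp lay inside Myc, from 61986417 to 61986571 on chromosome 15, with a fold of 3.25 and a −log10 q of 0.867. It was 1076 bp from the lower-coordinate end of the gene and so just outside the 1 kb rule, and it was within the H3K4me3 region of both lines. In the mutant line the region at Myc was elsewhere, from 61989411 to 61989660, 701 bp from the higher-coordinate end and off H3K4me3, with a fold of 2.18 and a −log10 q of 0. Mycn had 1 region after the gene in each list, and these did not overlap. That of the WT line (12927387 to 12927835, fold 2.70, −log10 q 0) was on a separate H3K4me3 region, and that of the mutant line (12928795 to 12929159, fold 2.22, −log10 q 0.0171) was not. Mycl had 0 regions in the WT line and 2 in the mutant line, 5014 bp before and 1577 bp after the gene, of fold 2.58 and 2.21. Both were off H3K4me3.

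Max, the shared dimer partner of the network, had 0 WDR5 regions in either list. The nearest lay 99.6 kb from the gene in the WT line and 77.3 kb in the mutant line. Mlx had 1 region in the WT line, inside the gene from 101089021 to 101089313, with a fold of 2.60 and a −log10 q of 0, and 0 in the mutant line. Just outside the 20 kb limit, the nearest regions were 22.6 kb from Mycl in the mutant line (fold 2.26, −log10 q 0) and 26.9 kb from Mlx in the WT line (fold 2.88, −log10 q 1.26).

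The overlap of these WDR5 regions with H3K4me3 of the same line was then counted. In the WT line 6 of 7 regions (85.7%, interval 42.1 to 99.6%) overlapped H3K4me3, beside 46.0% of the list. In the mutant line 4 of 12 (33.3%, 9.92 to 65.1%) did, beside 12.3% of the list. The 4 were at Mnt, at Mxi1, at the upstream end of Mga and at its listed start. The regions listed in both lines were 3, at Mnt, Mxi1 and Mga, which is 42.9% of those in the WT line (9.90 to 81.6%, list 12.3%) and 25% in the mutant line (5.49 to 57.2%, list 5.09%). All 3 overlapped H3K4me3 in both lines. Of strong regions alone, all 3 of the WT line and the 1 of the mutant line overlapped H3K4me3, and 1, that of Mnt, was in both. The list shares above are for all regions, strong or weak. Those of the strong regions of each list were not counted, so these last counts have no background beside them. The intervals cover counting error within each list and do not compare the lines.

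**Figure D3:**
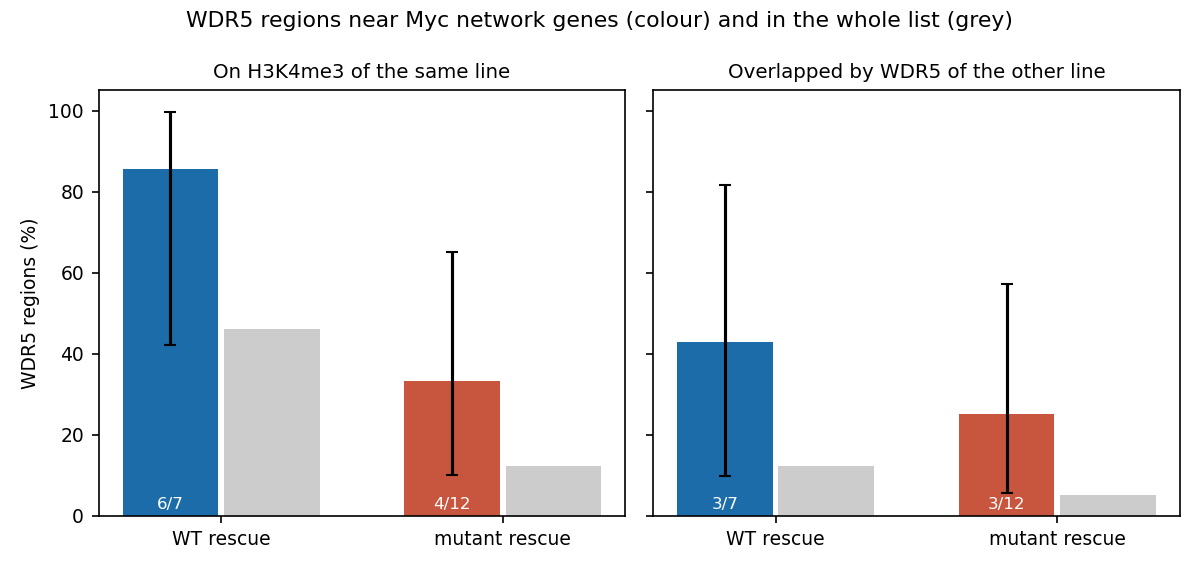
Share of WDR5 regions (%) that overlap H3K4me3 of the same line (left) or a WDR5 region of the other line (right). Coloured bars are the regions near the 8 genes with exact 95% intervals and counts, and grey bars are the whole list. The coloured bars stand at 85.7% and 33.3% on the left and at 42.9% and 25% on the right, each above its grey bar. Every interval but that of the mutant line on the right (from 5.49%, grey bar 5.09%) includes the share of its grey bar. The whole list is not limited to gene windows, so the bars were not matched for place.

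H3K4me3 was listed at the start site of all 8 genes in both lines, beside 68.7% of all protein-coding genes for the WT line against 68.0% for the mutant line. A region covered the start site itself, or for Myc a gene end, at all 8. In the windows the lists held 50 and 45 H3K4me3 regions (86.5% and 86.1% of all genes had at least 1), which covered 53.7 and 49 kb at a mean fold of 5.69 and 5.81. These are 91.9 and 82.7 regions per Mb, beside 45.2 and 45.4 in the windows of all genes. The widest start-site region had a median of 2160 bp over the 8 genes in the WT line and 2032 bp in the mutant line, where the medians over all genes with a region were 1517 and 1457 bp. Their highest start-site folds had medians of 7.40 and 7.04, beside 10.19 and 10.37 over all genes.

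Myc and Mycn, the MYC family genes best known in embryonic stem cells, carried some of the widest start-site H3K4me3 regions of any gene, at low folds. The Mycn region was 3943 bp wide in the WT line (12937970 to 12941912, fold 3.23, −log10 q 135), which ranked 6 of 15053 genes by width. In the mutant line it was 2983 bp wide (12939023 to 12942005, fold 3.90, −log10 q 172) and ranked 93 of 14881. The upstream ends differed by 93 bp and the downstream ends, inside the gene, by 1053 bp. The Myc region was 3571 bp wide in the WT line (61984739 to 61988309, fold 3.39, −log10 q 84.2), rank 33, and 3871 bp wide in the mutant line (61984358 to 61988228, fold 4.78, −log10 q 68.8), rank 5. In the WT line a separate region of 258 bp (61984276 to 61984533) stood before it, at a place the single mutant line region covered in part. The folds of Mycn and Myc exceeded those of 2.32% and 2.70% of genes with a region in the WT line, and of 5.05% and 8.07% in the mutant line.

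**Figure D4:**
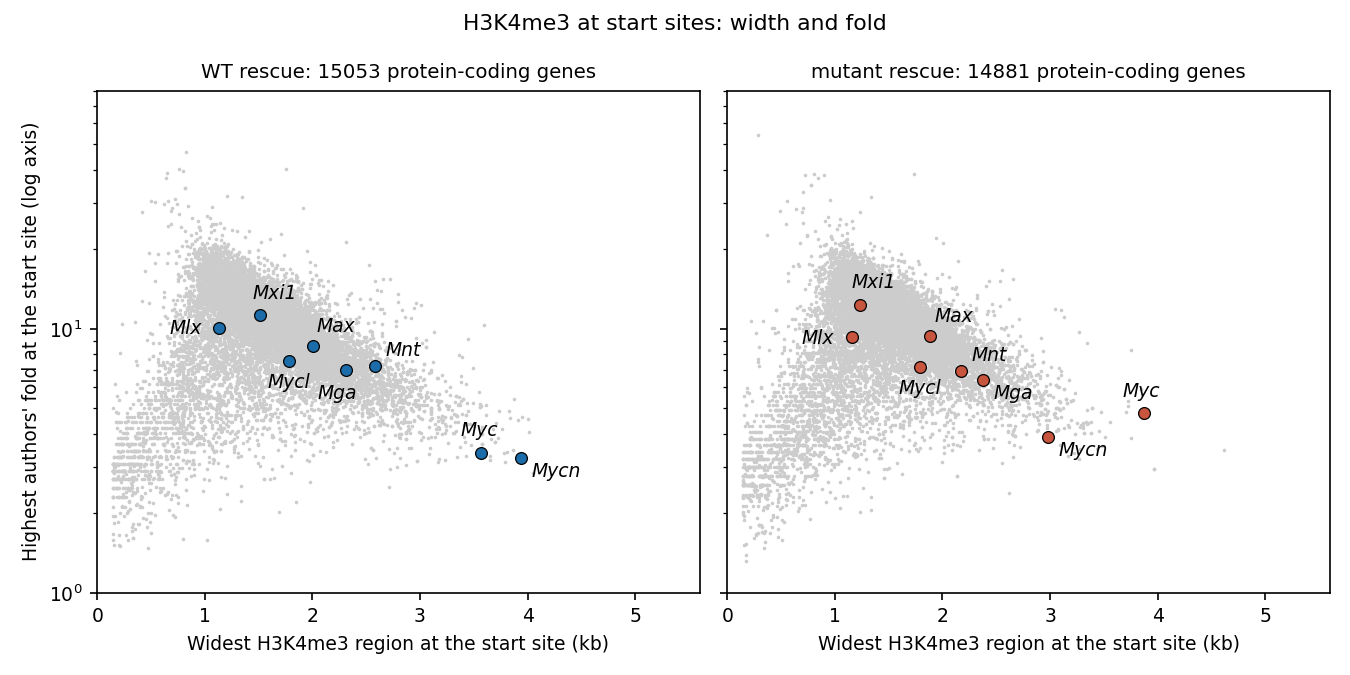
Width in kb of the widest H3K4me3 region at a start site against the highest fold there (log axis) for each protein-coding gene with such a region, in the WT line (left) and the mutant line (right). Coloured points are the 8 genes. Mycn and Myc lie at the wide, low-fold edge (3943 and 3571 bp in the WT line, 2983 and 3871 bp in the mutant line), and Mlx lies below the median width in both.

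Mycl, the third family gene, had a region of intermediate width, 1781 bp (122995462 to 122997242 on chromosome 4, fold 7.57) in the WT line and 1788 bp (fold 7.17) in the mutant line, wider than at 69.5% and 76.3% of genes. At Max the region was 2004 and 1889 bp wide (76960994 to 76962997 in the WT line) with folds of 8.58 and 9.38. The ends of the Mycl and Max regions differed between the lines by at most 92 bp.

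Among the repressor genes, Mnt had a start-site region of 2585 bp in the WT line (74829642 to 74832226, fold 7.22) against 2175 bp in the mutant line (fold 6.92), wider than at 95.8% and 91.8% of genes. Within it, the WDR5 region of the WT line covered the whole promoter sequence printed above, and that of the mutant line covered all but its last bases. Mga had regions of 2317 and 2377 bp at the listed start (119896618 to 119898934 in the WT line) and of 2188 and 1950 bp over its lower-coordinate end, 119872160 to 119874347 in the WT line, so that H3K4me3 marked both places. Mxi1 had H3K4me3 at the earliest start, 1517 bp wide in the WT line and 1007 bp in the mutant line. At the 2 later starts it was 1282 and 1233 bp wide with folds of 11.26 and 12.33, the highest start-site folds among the 8 genes in each list. Mlx had a region of 1132 and 1158 bp, below the all-gene median in both lines, with folds of 10.12 and 9.29. Its ends differed between the lines by at most 27 bp, and the gene Coasy, which encodes an enzyme of coenzyme A synthesis, starts or ends within 1 kb of it.

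Most H3K4me3 regions around these genes were listed in both lines. Of those in the WT line 41 of 50 (82.0%, 68.6 to 91.4%) were overlapped in the mutant line, where 80.7% of the whole list was. In the other direction it was 41 of 45 (91.1%, 78.8 to 97.5%), where 77.7% of the list was. The 9 found only in the WT line list were 151 to 448 bp wide with folds of 1.62 to 3.27 and lay around Max, Mga and Mxi1. The 4 found only in the mutant line list were 241 to 431 bp wide with folds of 2.35 to 3.42 and lay around Mycn, Max and Mxi1. None of these 13 was at a start site of the 8 genes.

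Many of the H3K4me3 regions lay away from the listed starts. Shared or not, 32 of 50 and 29 of 45 regions were not within 1 kb of a listed start of the gene or of a neighbour. For genes without a listed start either end was used. The same share of the whole lists was not counted, so these counts are not a trait particular to these genes. In each line the regions away from starts include that over the lower-coordinate end of Mga, which is not a listed start. Before Myc, both lists had a region at about the same place, 993 bp wide (61978494 to 61979486, fold 3.96) in the WT line and 1400 bp (fold 5.36) in the mutant line. After Myc, a region of 1847 bp (62009761 to 62011607) in the WT line was met by a region of 193 bp in the mutant line. The window ended at 62010361, so 601 bp of this WT line region lay inside it. Mutant line regions beyond that end were not collected, so these widths cannot be compared. After Mycn, a region of 1449 bp (12926712 to 12928160, fold 6.63) in the WT line overlapped a region of 1796 bp (fold 5.16) in the mutant line. A region 11500 bp before Mycl had a fold of 11.26 in the WT line (1254 bp) and of 6.19 in the mutant line (1106 bp). Inside Max, a region of 1106 bp (76944675 to 76945780, fold 7.47) in the WT line overlapped a region of 574 bp (fold 4.06) in the mutant line. Inside Mnt, both lists held a region with its summit 7434 and 7664 bp from the upstream gene end, 1578 and 1455 bp wide. Regions within 1 kb of the start of a neighbouring gene, or of either end where none was listed, numbered 9 and 8. These include the start-site region of Mlx itself, which is within 1 kb of Coasy. The highest fold in the windows was at the start of Mapkbp1 beside Mga, 16.43 and 18.05, followed by that of Trit1 beside Mycl, 13.8 and 14.55.

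Genes around the network were read from lists set by function, by the same start-site rule. PRC1.6 genes with a WDR5 region were 9 of 13 in the WT line (all genes 16.5%) and 5 in the mutant line (all genes 9.65%), with 4 in both (all genes 4.33%), E2f6, Tfdp1, Cbx3 and Hdac2. Being in both is counted by gene, not by place. At Cbx3 the region of highest −log10 p ran from 51469293 to 51469787 in the WT line. In the mutant line it ran from 51470774 to 51470994, without overlap. The median folds over the PRC1.6 genes with a region were 2.97 and 3.03, beside 2.74 and 2.57 over all genes. Strong regions stood at 4 and 2 of the 13, where 2.43% and 1.75% of all genes had one. The 4 of the WT line were Pcgf6, the RING-associated subunit that defines the complex (fold 4.35, −log10 q 4.94), the deacetylase gene Hdac2 (4.32 and 5.41), Tfdp1, an E2F partner (3.98 and 5.15), and the repressor gene E2f6 (3.39 and 2.11). The 2 of the mutant line were E2f6 (fold 4.80, −log10 q 7.66) and Hdac2 (3.81 and 6.67). Wdr5 itself is on this list and among the cofactors.

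For the next 3 lists the shares over all genes are again 16.5% and 9.65%, 4.33% in both, and 2.43% and 1.75% for strong regions. Known MYC target genes had WDR5 at 10 of 20 start sites in the WT list, against 3 in the mutant list, with 0 in both, which at 4.33% of all genes is near the background, and median folds of 2.77 and 2.26. In the WT line Ncl (nucleolin, fold 4.0, −log10 q 4.16) and Fbl (fibrillarin, fold 3.16, −log10 q 2.24) had strong regions, and 0 genes did in the mutant line. MYC cofactor genes gave 8 and 2 of 20, the latter near the 9.65% of all genes, with 0 in both and median folds of 2.70 and 2.85. Their strong regions numbered 0 and 1, the latter at the deubiquitinase gene Usp28 (fold 3.29, −log10 q 2.1). The other E-box factors and network relatives gave 3 and 2 of 9, with Usf1, which also binds CACGTG, in both and median folds of 2.51 and 1.88. Usf1 had a fold of 4.11 and a −log10 q of 4.41 in the WT line and a fold of 1.76 and a −log10 q of 0 in the mutant line. H3K4me3 was at the start site of all PRC1.6, cofactor and relative genes and of 19 of 20 targets in both lines.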

How the data were processed

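The build (mm10) and the tools MACS2 2.1.2, Picard, SAMtools and BWA 0.7.17-r1188 are named per the submitters' processing notes. Settings and controls are not given in the sources used here. The 4 deposited peak lists, 1 per antibody library, give each region's position and the authors' fold ratio at the summit, −log10 p, −log10 q, summit position and a score. The deposited score was not used. Their smallest −log10 p was 2.00. The 2 input libraries were not analysed here.

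Positions are 1-based. Genes came from RefSeq (GRCm38.p6), start sites and strand from RefSeq promoter sequences, present for 17491 of 21896 protein-coding genes. For the other 4405 either gene end was used. Overlap means at least 1 bp. Code ran in Python 3.11.15 with numpy 2.4.6, pandas 2.3.3, scipy 1.17.1 and matplotlib 3.10.9, and was tested on simulated data. With 1 library per antibody and line no p-value is given. The members and lists were chosen with earlier results of these data known. All 8 genes are named with every WDR5 region, their start-site H3K4me3 regions and counts of the rest. The widest H3K4me3 region in the windows of Mxi1 and Mlx lay away from their start sites and is not named. Strong regions (−log10 q 2 or more) and regions in both lists decided which other list genes are named. The H3K4me3 regions away from start sites were picked with their values in view. The alternatives tried were strong regions alone, regions whose −log10 p reached 5, equally long lists, other start-site rules, a 10 kb flank and a reciprocal overlap of 50%.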

Additional observations from a re-analysis of the deposited data

How the results depend on the processing

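No paired analysis was possible because each group is 1 library, which leaves no pairs of replicates, and no library could be left out. H3K4me3 results stayed within 1.5 times of the reported value in all but 3 of 38 alternatives. The 38 include the start-site counts, which were 8 of 8 genes in every setting and could not rise, so a wider rule could not move them. With a 10 kb flank, 27 regions were shared in each line and the mutant line windows held 29. WDR5 counts depended on the threshold. Strong regions (−log10 q 2 or more) in the windows were 3 and 1 for the WT and the mutant line, those whose −log10 p reached 5 were 3 and 2, and cut to equal length the mutant list held 3. On H3K4me3 there were then 3 and 1 by q, 3 and 1 by p, and 1 in the mutant line at equal length. With a reciprocal overlap of 50% there were 0 and 0, since WDR5 regions are narrower than H3K4me3 regions. Regions shared between the lines fell to 1 in each direction by q, by p and at equal length, that of Mnt. Start-site counts for WDR5 in the mutant line were 1 by q, by p, at equal length and where the region had to cover the start, again Mnt. With a 2.5 kb window the WT line count was 4, with Myc and Mlx added, and at either gene end it was 3, with Mga added. Read depth is unknown, so a gene without a WDR5 region had none detectable at this depth.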
